A study of Homo sapiens with 16 samples.

Results

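The replication-dependent histone genes lie in a few dense clusters, and this is an account of H3K4me3, H3K27me3 and H3K9me2 ChIP-seq peaks in those clusters in a pair of human breast cell lines. Members are the peaks, as the authors called them on hg19, inside 4 windows: chr6:26015000-26290000 (275 kb, called window 1 here), chr6:27095000-27130000 (35 kb, window 2), chr6:27770000-27870000 (100 kb, window 3) and chr1:149780000-149870000 (90 kb, window 4). Of 192665 peaks in 12 lists, 212 fell in these windows, and 211 of those were H3K4me3. Overlapping H3K4me3 peaks of the 4 libraries were joined, which gave 55 regions in the windows of 18048 in all.

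MCF-10A is an immortalised, non-tumorigenic breast epithelial line, grown here with EGF, insulin, cholera toxin and hydrocortisone. MDA-MB-231 is a breast cancer line derived from a metastatic site, and the labels do not list its medium. Both were taken from laboratory stocks as subconfluent, otherwise untreated cultures, and each of the 3 marks was profiled in 2 biological replicates of each line. With 1 line on each side, a difference between the lines cannot be told apart from one between their cultures. The windows were chosen by the places of the histone clusters and by their H3K4me3 peaks, with the difference in covered bases between these lines already known. Every H3K4me3 value below that compares the lines, or the windows with the genome, is therefore a description and supports nothing further. The repressive marks were not used to choose the windows.

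Histones are the spools around which DNA is wound. H2A, H2B, H3 and H4 form the core of the nucleosome, and H1 binds the DNA that enters and leaves it. The replication-dependent genes are short, lack introns and produce transcripts that end in a stem-loop instead of a poly(A) tail, and they are expressed in S phase, when new DNA must be packaged. H3K4me3 marks active or poised promoters, H3K27me3 is the mark of Polycomb repression, and H3K9me2 is a mark of repressed chromatin. Proliferating cells therefore usually carry H3K4me3 over many of these promoters.

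RefSeq (GRCh38.p14) lists 64 coding histone genes in 4 groups, 3 on chromosome 6 and 1 on chromosome 1, which match the 4 windows in chromosome and order. They comprise 6 H1, 15 H2A, 16 H2B, 13 H3 and 14 H4 genes, and 10 histone pseudogenes lie among them. The first group holds 32 coding genes, the second 5, the third 16 and the fourth 11. The first group begins with H1-1, H3C1, H4C1, H4C2, H3C2, H2AC4 and H2BC3, and ends with H3C7, H2BC9, H3C8, H2BC10 and H4C8. HFE, a regulator of iron uptake, is the coding gene of another kind in that group. The second group is H2BC11, H2AC11, H2BC12, H4C9 and H2AC12, and thus has neither an H1 nor an H3 gene. The third runs from H2BC13 and H2AC13 to H2AC17 and H2BC17 and holds H1-5, and the fourth runs from H2BC18 and H3C13 to H2AC20 and H2AC21. The gene table has another build than the peaks, so regions are named by their hg19 position and were not assigned to single genes. H3K4me3 at cell type markers and at replication-independent histone genes was not analysed here for the same reason.

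Promoters were available for 59 of the 64 genes, and the promoter of the earliest gene of each family in the first group with an entry is shown because the families carry different elements in front of genes that share 1 cluster. Each line is the 250 bases before the RefSeq start (GRCh38.p14), 5′ to 3′ on the gene's own strand (H3C1 on the plus strand, the others on the minus strand). Capitals mark matches on either strand to the CCAAT box, to the TATAAA box, to ATTTGCAT (the octamer of the H2B promoter), to GGTCCG (an H4 promoter element) or to AAACACA (an H1 promoter element).
H1-1: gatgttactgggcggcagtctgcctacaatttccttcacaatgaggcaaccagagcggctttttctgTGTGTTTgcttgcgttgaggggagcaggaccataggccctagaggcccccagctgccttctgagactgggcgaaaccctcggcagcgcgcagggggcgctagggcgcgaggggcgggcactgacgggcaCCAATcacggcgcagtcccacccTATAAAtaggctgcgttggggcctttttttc
H2AC4: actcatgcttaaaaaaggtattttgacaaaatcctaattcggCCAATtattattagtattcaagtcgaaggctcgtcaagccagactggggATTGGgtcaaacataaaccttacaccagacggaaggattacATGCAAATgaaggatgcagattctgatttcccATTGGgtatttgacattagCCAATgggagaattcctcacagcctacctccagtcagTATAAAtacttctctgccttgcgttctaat
H2BC3: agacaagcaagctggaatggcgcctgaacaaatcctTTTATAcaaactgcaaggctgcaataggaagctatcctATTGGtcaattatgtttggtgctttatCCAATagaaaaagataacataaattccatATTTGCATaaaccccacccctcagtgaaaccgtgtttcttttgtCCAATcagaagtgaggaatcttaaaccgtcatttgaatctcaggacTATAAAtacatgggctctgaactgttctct
H3C1: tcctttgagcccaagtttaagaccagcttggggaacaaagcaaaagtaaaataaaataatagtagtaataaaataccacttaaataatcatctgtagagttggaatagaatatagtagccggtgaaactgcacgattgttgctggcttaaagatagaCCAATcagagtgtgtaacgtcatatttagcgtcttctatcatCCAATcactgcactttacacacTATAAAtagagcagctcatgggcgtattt
H4C2: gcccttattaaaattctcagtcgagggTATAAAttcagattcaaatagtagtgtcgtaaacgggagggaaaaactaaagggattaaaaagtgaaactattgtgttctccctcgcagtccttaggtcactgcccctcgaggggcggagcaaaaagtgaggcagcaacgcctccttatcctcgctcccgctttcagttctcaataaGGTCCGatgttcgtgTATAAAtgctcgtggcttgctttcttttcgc

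Within the 300-base promoters (250 bases before to 50 after the start), CCAAT was present in 6 of 6 H1, 14 of 14 H2A, 16 of 16 H2B and 11 of 11 H3 genes, but in 3 of 12 H4 genes. That made 84.7% of the histone promoters, against 35.7% of all 27305 RefSeq promoters. TATAAA was present in 66.1% of the histone promoters and in 3264 of the 27305. ATTTGCAT was found in 13 of 16 H2B and 10 of 14 H2A promoters, 1 H3 promoter and no H1 or H4 promoter, or 40.7% against 1.8% of all promoters. H2A and H2B genes often stand head to head and share the sequence between them, so these counts are not of independent stretches. GGTCCG was found in 11 of 12 H4 promoters and 23.7% of histone promoters against 11.2% of all, and AAACACA in 6 of 6 H1 promoters and 15.3% against 5.76%. In 6 promoters some matches overlapped. A match is a description of the letters and was not related to the peaks.

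The windows were dense in H3K4me3 in every library and denser in MCF-10A than in MDA-MB-231. They held 62 and 68 H3K4me3 peaks in MCF-10A replicates 1 and 2 and 39 and 42 in MDA-MB-231. These peaks covered 15.3% and 16.7% of the windows in MCF-10A and 10.7% and 11.0% in MDA-MB-231, so the lines did not overlap. All 4 libraries exceeded their own cover of chromosomes 1 to 22 and X, which was 0.659% and 0.724% in MCF-10A and 0.712% and 0.714% in MDA-MB-231. The mean cover of the windows was 16.0% ± 0.982 (SD, n = 2) in MCF-10A and 10.9% ± 0.187 (SD, n = 2) in MDA-MB-231, a difference of -5.15 percentage points. How deeply each library was sequenced cannot be read from lists of peaks, and a peak that is missing from a list is not a measured absence of the mark.

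**Figure D1:**
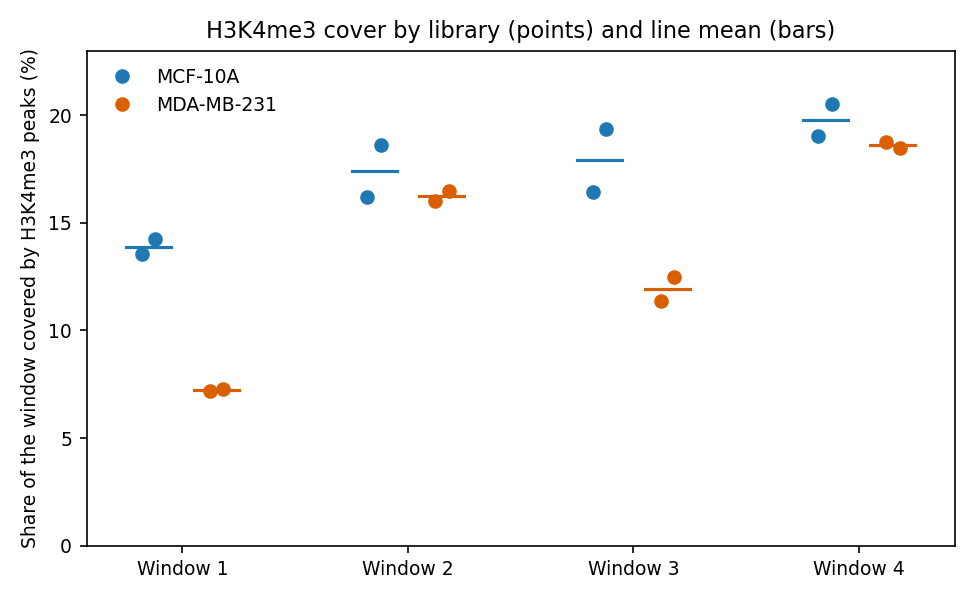
Percent of each histone gene window covered by H3K4me3 peaks, with a point for each library and a bar at the mean of each line (n = 2). The lines stand apart in windows 1 and 3 and lie close together in windows 2 and 4.

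The difference sat in windows 1 and 3. In window 1, peaks covered 13.56% and 14.24% in MCF-10A and 7.166% and 7.287% in MDA-MB-231. In window 3, they covered 16.45% and 19.36% against 11.38% and 12.49%. The libraries of the lines did not overlap in either window. In window 4, on chromosome 1, the values were 19.04% and 20.52% against 18.78% and 18.46%, apart by a small margin. In window 2 they were 16.2% and 18.6% against 16.01% and 16.48%, so the lines overlapped there. The H3K4me3 of the clusters thus differed between the lines by location: mean differences were -6.67 and -5.97 percentage points in windows 1 and 3, and -1.16 and -1.15 in windows 2 and 4.

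Counted by region, 29 of the 55 (52.7%) had a peak in all 4 libraries, against 68.5% of all 18048 regions. A peak in both MCF-10A libraries and in neither MDA-MB-231 library was found in 17 (30.9%), against 5.91% genome-wide. The opposite pattern, which 6.27% of regions genome-wide showed, was found in 0 of the 55. Every one of the 55 regions had a peak in at least 1 MCF-10A library, whereas 22 had none in MDA-MB-231. In windows 2 and 4, all 3 and all 6 regions had a peak in every library. Window 1 had 12 such regions of 32, and window 3 had 8 of 14.

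The 17 regions seen in MCF-10A alone were not scattered, and most formed 1 unbroken run in window 1. From chr6:26188623 to chr6:26274395, over 85.8 kb, 14 consecutive H3K4me3 regions had no peak in either MDA-MB-231 library, and 13 of them had a peak in both MCF-10A libraries. The MCF-10A lists held 15 and 16 peaks there, covering 17.8 and 16.7 kb, or 20.7% and 19.5% of the stretch. These shares are raised by the limits of the stretch, which are the outer edges of its first and last regions. The MDA-MB-231 H3K4me3 lists had no peak from chr6:26184650 to chr6:26284770.

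**Figure D2:**
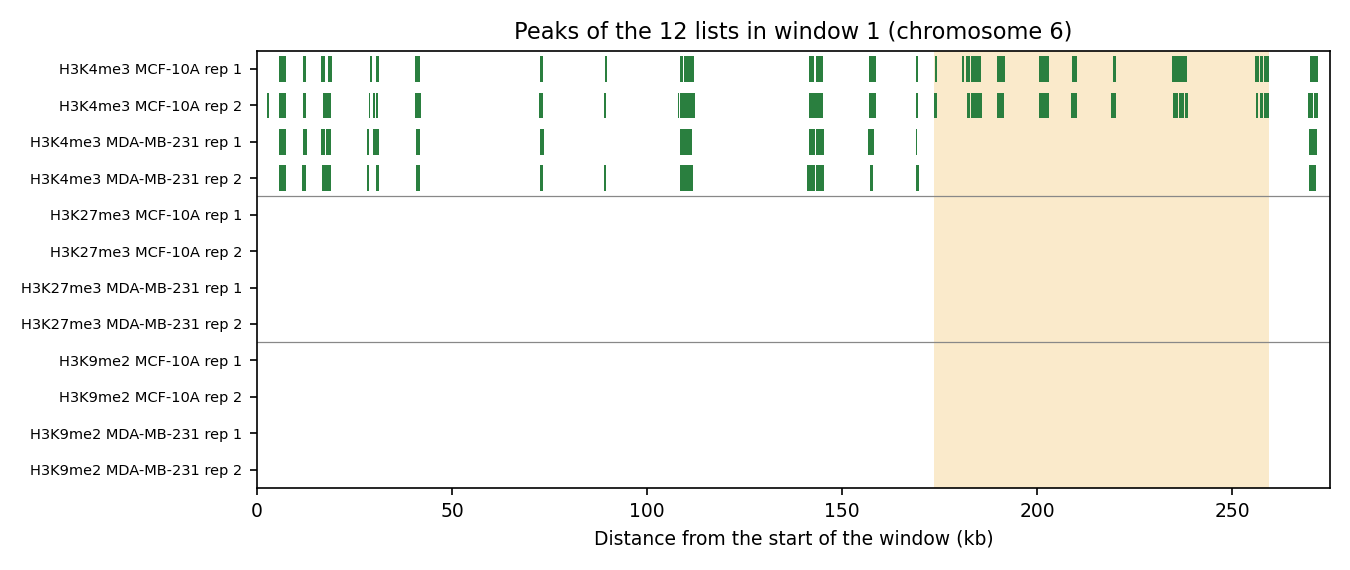
Peaks of the 12 lists across window 1, 1 track per library, by distance from the window start in kb, with the stretch that has no MDA-MB-231 peak shaded. The MCF-10A H3K4me3 tracks carry 15 and 16 peaks in the shaded part, the MDA-MB-231 tracks carry 0, and the 8 tracks of H3K27me3 and H3K9me2 are empty.

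The peaks of this run in MCF-10A ranged from narrow to wide. The widest region, chr6:26198052-26200805, had 2612 and 2675 bases under peaks in MCF-10A replicates 1 and 2. At chr6:26251208-26253692 the values were 2156 and 2369 bases, and at chr6:26204709-26206714 they were 1940 and 1693 bases. The peak at the last of these carried the authors' score of 3100 in replicate 2, a value that many peaks of the lists share, and stood at the 68.8th percentile of scores in replicate 1. These were thus not marginal calls.

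Another 6 regions of the run held over 1 kb in at least 1 MCF-10A replicate. At chr6:26215362-26216983 the covered bases were 1622 and 1507, and at chr6:26223732-26225196 they were 1272 and 1371. At chr6:26249557-26251006 they were 1422 and 1195, and at chr6:26273191-26274395 they were 1171 and 1181. In these the replicates differed little in covered bases. The score at chr6:26223732-26225196 stood at the 9.44th percentile in replicate 1 and the 25.8th in replicate 2, and the others lay between the 26.1th and 32.5th. At chr6:26217002-26218013 the values were 1012 and 868 bases, and at chr6:26233939-26235248 they were 937 and 1297. The score percentiles were 16.4 and 29.9 at the former, in replicates 1 and 2, and 15.5 and 26.5 at the latter.

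The remaining regions were narrower or less even between replicates. At chr6:26196801-26197800 there were 1000 and 593 bases, and at chr6:26270942-26271916 there were 975 and 711. At chr6:26188623-26189316, the start of the run, there were 584 and 652 bases. At chr6:26272135-26272822 there were 648 and 581, and the scores stood at the 9.84th and 12.7th percentile of their lists. The region chr6:26195804-26196220 had a peak of 417 bases in MCF-10A replicate 1 alone, at the 2.68th percentile, the lowest score percentile of that library in the run. In MDA-MB-231 every region of the run is listed at 0 in replicate 1 and in replicate 2.

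By its definition, the run ends on each side at the first region with an MDA-MB-231 peak. Just before it, chr6:26183911-26184649 had 536, 642, 277 and 661 bases in MCF-10A replicates 1 and 2 and MDA-MB-231 replicates 1 and 2. Just after it, chr6:26284537-26287003 had 2179, 2350, 1921 and 1804 bases in the same order. Both flanking regions had peaks in all 4 libraries. In MDA-MB-231 replicates 1 and 2 the scores of the first stood at the 13.1th and 14.5th percentile of their lists. The region that follows the second, chr6:26304936-26305635, again had peaks in MCF-10A alone.

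Over the whole genome there were 1665 runs of regions without an MDA-MB-231 peak, of which 1341 were single regions and 234 were pairs. The run in window 1 was the second longest by number of regions, a place it shared with a run of 14 on chromosome 7 at chr7:27134915-27196573. The longest had 16 regions, at chrX:114828348-115002745. In the opposite direction, the longest run of regions with no MCF-10A peak had 11. Built from peaks of score 100 or more, the run spanned the same coordinates and again counted 14 regions, although chr6:26195804-26196220, with a score of 70.26, is not among them. It had 8 regions and the sixth place when regions within 1000 bp were joined. No peak list accompanies the inputs, so whether the DNA of this stretch is present at the same copy number in both lines was not tested.

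**Figure D3:**
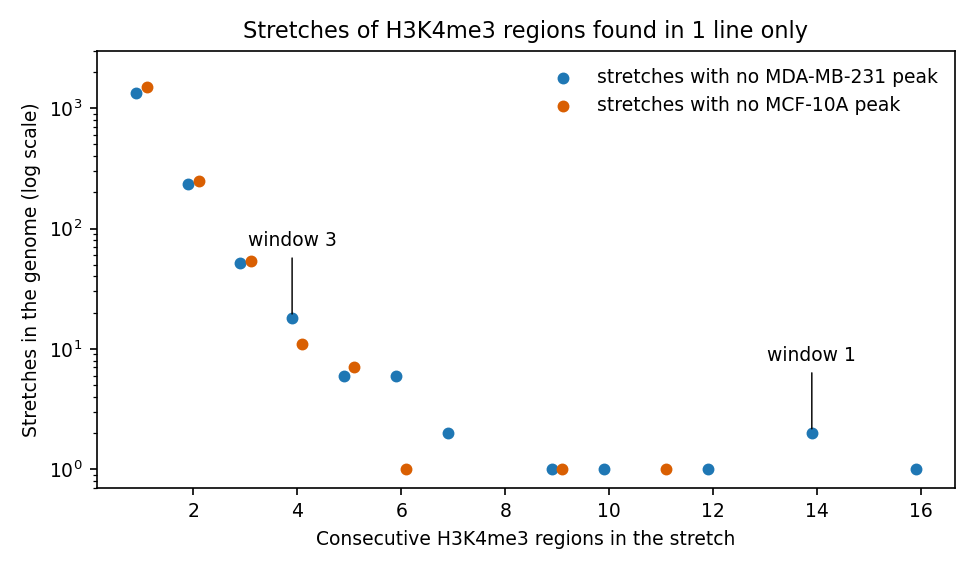
Number of runs in the genome against the number of consecutive H3K4me3 regions they hold, on a log axis, for regions with no MDA-MB-231 peak and for regions with no MCF-10A peak. The run in window 1, with 14 regions, lies at the far end of the first distribution, and the longest run of the second holds 11.

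Window 3 had a shorter run of the same kind. From chr6:27832335 to chr6:27841376, over 9.04 kb, 4 consecutive regions had no MDA-MB-231 peak, and 3 of them had peaks in both MCF-10A libraries. At chr6:27832335-27833648 the MCF-10A replicates had 1197 and 1314 bases under peaks, at chr6:27834398-27835673 they had 1057 and 1093, and at chr6:27833741-27834280 they had 540 and 461. The fourth, chr6:27840961-27841376, had 416 bases in replicate 2 alone. A lone region of this kind, chr6:27794170-27794854, had 403 and 685 bases in MCF-10A and is listed at 0 in either replicate of MDA-MB-231. With both runs taken out of the windows, the cover was 14.7% ± 1.31 (SD, n = 2) in MCF-10A and 13.4% ± 0.231 (SD, n = 2) in MDA-MB-231. Since the 2 runs were picked as places without MDA-MB-231 peaks, taking them out had to shrink the difference in cover. It went from -5.15 to -1.36 percentage points, so the runs held most of it.

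Other regions of window 3 kept a peak in MDA-MB-231 but a narrower one. At chr6:27781802-27783340 there were 1392 and 1398 bases in MCF-10A and 554 and 497 in MDA-MB-231, a log2 ratio of -1.26 (SE 0.122) on the log2(bases + 100) scale. At chr6:27774467-27775839 there were 1069 and 1373 bases against 463 and 591, a log2 ratio of -1.07 (SE 0.203). At chr6:27791484-27793225 there were 1547 and 1742 bases against 1171 and 867, a log2 ratio of -0.65. In all of these, both MDA-MB-231 libraries lay below both MCF-10A libraries. The remaining shared regions of window 3 differed less: chr6:27804310-27807755 had 3210 and 3446 against 2720 and 3072 bases, and chr6:27798340-27799681 had 1088 and 1342 against 802 and 1046. At chr6:27777552-27778810 there were 965 and 1053 against 889 and 973 bases, and at chr6:27775881-27776825 there were 880 and 706 against 895 and 887. The lines overlapped only at chr6:27777552-27778810 among these. The widest region of window 3, chr6:27859807-27863809, went the other way, with 3106 and 3566 bases in MCF-10A and 3884 and 3919 in MDA-MB-231. Within 100 kb the window thus held regions without an MDA-MB-231 peak, and regions with fewer or more covered bases there. Of its 8 shared regions, both MDA-MB-231 libraries lay below both MCF-10A libraries in 5 and above them in 2. Over the genome, 20.5% of shared regions lay lower and 30.6% higher in this way. In the limma fit given below, 2 of the 8 were called lower in MDA-MB-231 and 0 higher. Of the 12367 shared regions of the genome, 300 were called lower and 447 higher.

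**Figure D4:**
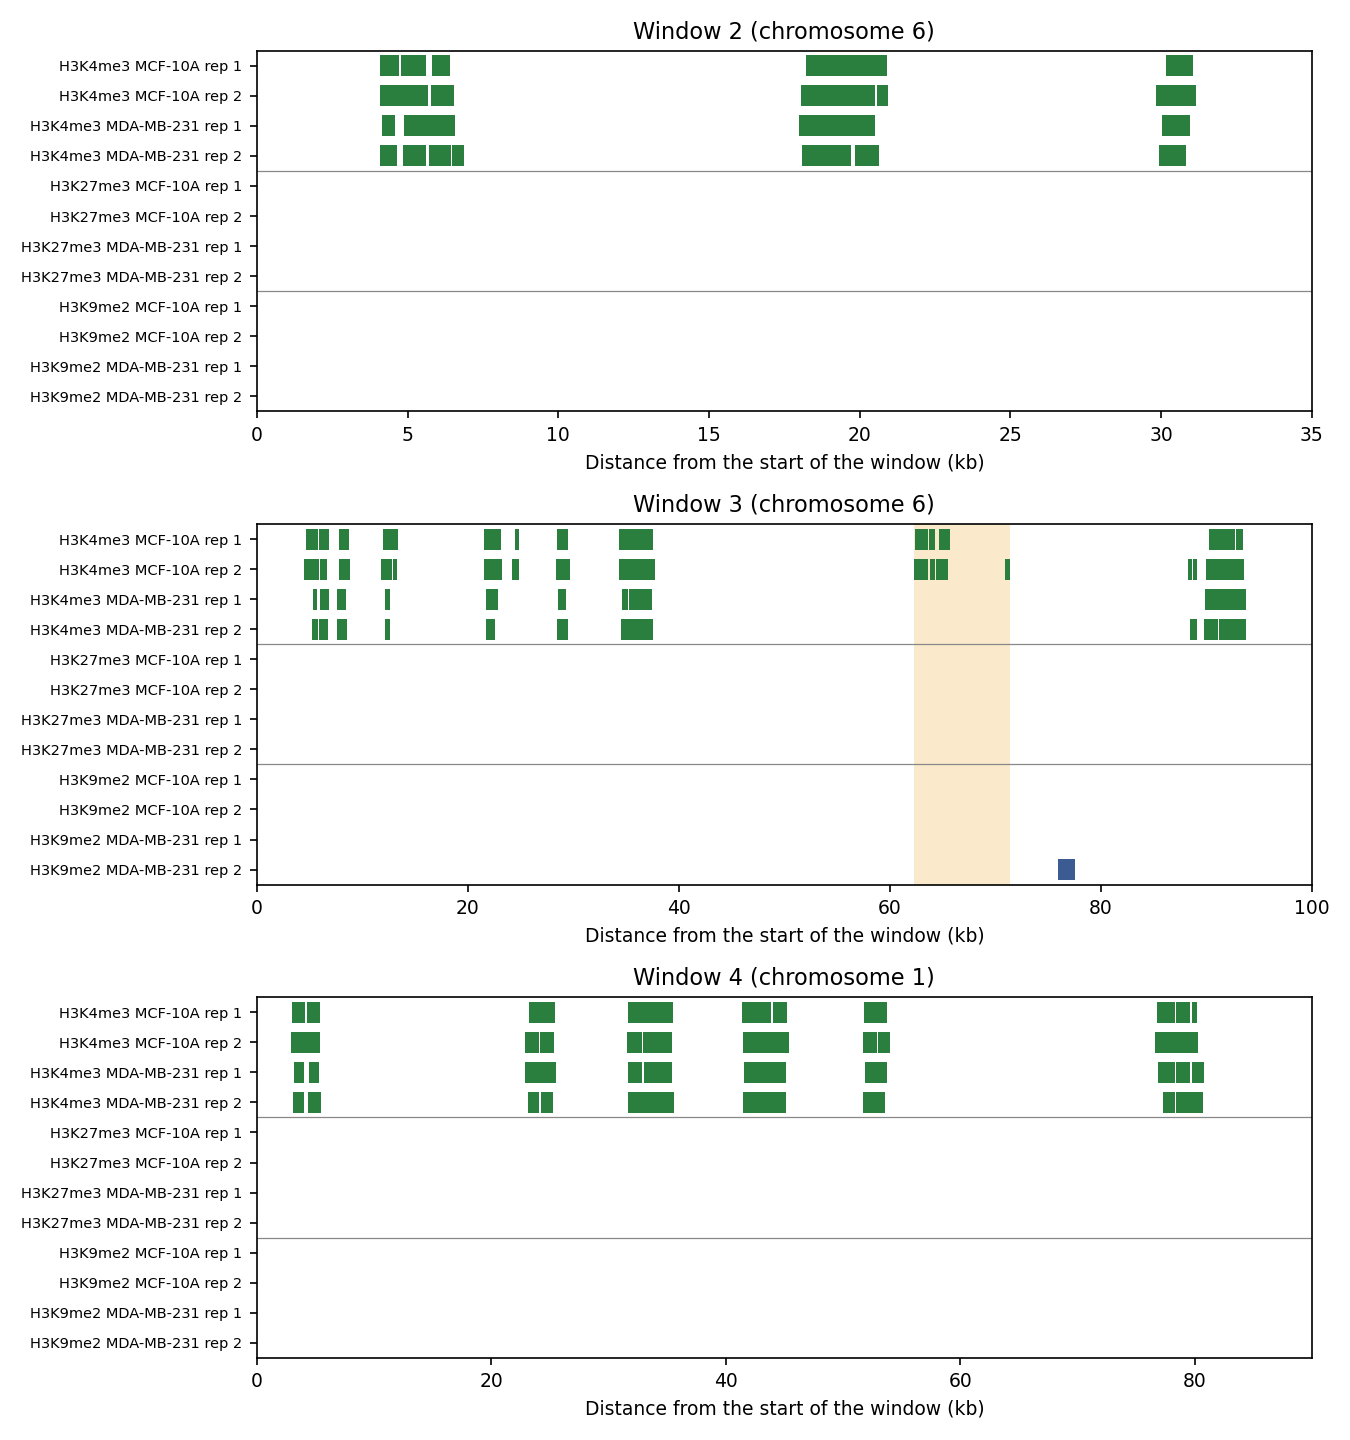
Peaks of the 12 lists across windows 2, 3 and 4, 1 track per library, by distance from each window's start in kb. Windows 2 and 4 carry peaks at the same places in every library, and in window 3 the shaded run of 4 regions has no MDA-MB-231 peak. The lone peak of a repressive mark is H3K9me2 in MDA-MB-231 replicate 2, to the right of the shading.

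In the chromosome 1 window and in window 2, every region had peaks in both lines. In window 4, chr1:149811580-149815616 had 3894, 3777, 3543 and 3978 bases in MCF-10A replicates 1 and 2 and MDA-MB-231 replicates 1 and 2. At chr1:149821371-149825402 there were 3688, 3950, 3578 and 3627 bases, and at chr1:149856622-149860764 there were 3199, 3687, 3611 and 3245. These values are bases summed over joined regions, which were not assigned to genes. The last of them held 3 separate peaks in MCF-10A replicate 1 and 3 in MDA-MB-231 replicate 1. The other three regions of the window were narrower: 2211, 2496, 1655 and 1979 bases at chr1:149782883-149785445, then 2197, 2330, 2676 and 1948 at chr1:149802865-149805548, and 1943, 2225, 1838 and 1840 at chr1:149831736-149833975. Both MDA-MB-231 libraries lay below both MCF-10A libraries at chr1:149782883-149785445, chr1:149821371-149825402 and chr1:149831736-149833975, and the lines overlapped at the other regions of the window. Over the genome, 20.5% of shared regions lay lower and 30.6% higher in this way.

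In window 2, chr6:27112988-27115936 had 2689, 2814, 2527 and 2418 bases in the same library order, the widest of its 3 regions. At chr6:27099065-27101870 there were 2068, 2382, 2142 and 2471 bases, and at chr6:27124842-27126155 there were 913, 1314, 933 and 879. Only the first of these separated the lines, with MDA-MB-231 lower. The genome shares of shared regions separated in this way were 20.5% lower and 30.6% higher.

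The beginning of window 1, before the long run, was shared by the lines. Its widest region, chr6:26123315-26127187, had 3629, 3811, 3168 and 3353 bases, and its score reached 3100 in all 4 libraries. Some regions there were wider in MDA-MB-231: chr6:26031467-26034122 had 1924 and 2127 bases in MCF-10A and 2477 and 2380 in MDA-MB-231. At chr6:26045309-26046277 there were 630 and 532 against 861 and 822 bases, and at chr6:26026522-26027812 there were 823 and 876 against 1036 and 1073. Others were narrower, such as chr6:26055386-26057005 with 1492 and 1605 against 1044 and 1141 bases, and chr6:26171708-26173724 with 1852 and 1829 against 1378 and 932. The order of the lines thus varied from place to place along this part of the cluster. At chr6:26155937-26158027 there were 1145 and 1445 against 1639 and 2036 bases. The lines overlapped at chr6:26020556-26022434 (1693 and 1853 against 1874 and 1761 bases), chr6:26087270-26088485 (895 and 1049 against 1002 and 893) and chr6:26158103-26160408 (1722 and 2064 against 1934 and 2217). Over the 12 regions of window 1 with a peak in every library, the median log2 ratio was close to 0 and 6 were narrower in MDA-MB-231. The lines did not overlap in 8 of the 12, of which 4 were lower and 4 higher in MDA-MB-231. Over the genome, 20.5% of shared regions lay lower and 30.6% higher in this way. In the limma fit given below, 0 of the 12 were called lower and 0 higher.

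**Figure D5:**
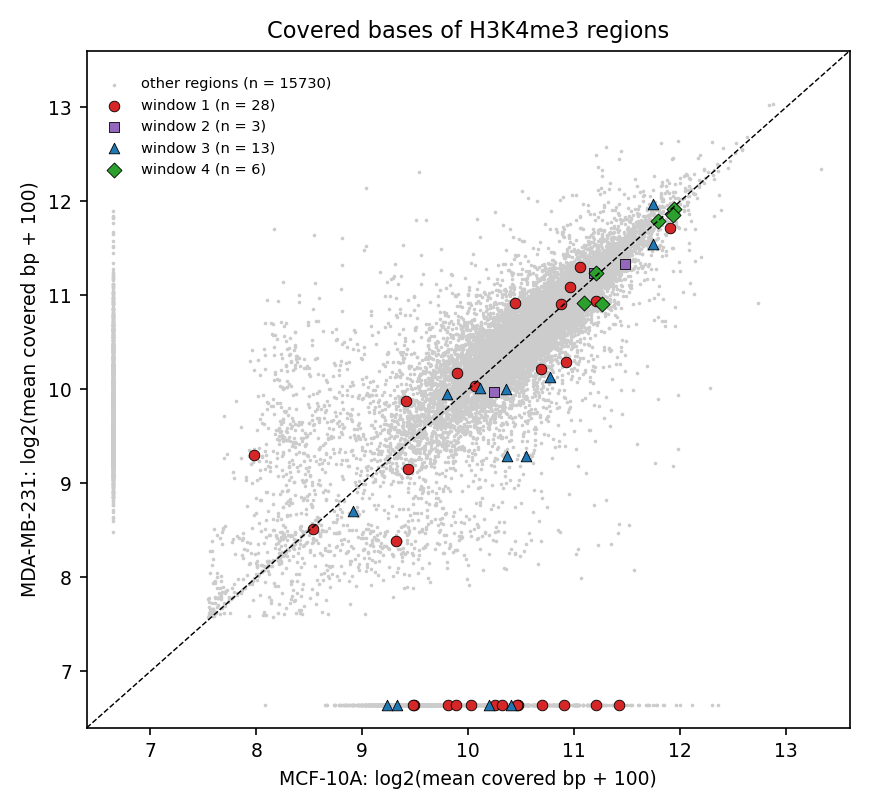
Log2(mean covered bases + 100) of each tested H3K4me3 region in MCF-10A (x axis) and MDA-MB-231 (y axis), with the 50 regions of the windows as coloured symbols, the other regions of the genome in grey and the line of equality dashed. The 17 window regions without an MDA-MB-231 peak form the row at the bottom, and no window region lies in the grey column at the left, which holds regions without an MCF-10A peak.

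In a limma fit of log2(bases + 100) over 15780 regions with a peak in at least 2 libraries, with a Benjamini-Hochberg adjusted p under 0.05 as the threshold, 50 of the 55 regions were tested and 19 were called lower in MDA-MB-231. The share of all tested regions called lower was 8.66%. The 19 were the 17 regions with no base covered in MDA-MB-231, and chr6:27781802-27783340 and chr6:27774467-27775839 in window 3. No region of the windows was called higher (2 of them at an unadjusted p under 0.05 in the same limma fit), where 10.0% of all tested regions were. The median log2 ratio was -0.36 in the windows and 0.04 over all tested regions. The calls at chr6:27781802-27783340 and chr6:27774467-27775839, the called regions shared by all 4 libraries, were lost whenever any 1 library was left out. That at chr6:27774467-27775839 was also lost with other settings. Since the windows were chosen with this comparison known, nothing is read from these counts.

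Among the 29 regions with a peak in every library, 2 were called lower and 0 higher, and the median log2 ratio was -0.11. For the 12367 such regions of the genome the numbers were 300 lower and 447 higher, with a median of 0.04. Both MDA-MB-231 libraries lay below both MCF-10A libraries in 13 of the 29, where 20.5% of all such regions did, and above them in 6, where 30.6% did. By window, the median was -0.15 in window 2, -0.28 in window 3 and -0.06 in window 4. The shared regions of the clusters were wide: their median covered length was 1722, 1853, 1655 and 1804 bases in MCF-10A replicates 1 and 2 and MDA-MB-231 replicates 1 and 2, against 1420, 1512, 1498 and 1505 over the genome. The narrowest of them had 277 bases in MDA-MB-231 replicate 1.

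Replicates of a line differed at few regions. A peak was present in 49 and 53 of the 55 regions in MCF-10A and in 31 and 32 in MDA-MB-231. In 5 regions 1 library alone had a peak, replicate 1 of MCF-10A in 2 of them and replicate 2 in 3. Their scores lay between 52.5 and 97.84, at the 0.715th to 8.47th percentile of their lists, so these were among the weakest calls. Another 4 regions had a mixed pattern. At chr6:26043119-26043907 there were 0 and 304 bases in MCF-10A and 562 and 497 in MDA-MB-231. At chr6:26044719-26045301 there were 0 and 540 against 534 and 0, and at chr6:26103928-26104592 there were 428 and 647 against 0 and 469. At chr6:27858235-27859134, replicate 2 of each line had a peak, of 766 and 637 bases. The first of these had more covered bases in both MDA-MB-231 libraries than in either MCF-10A library, and in the other three the lines overlapped.

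The windows held few peaks of the repressive marks. No H3K27me3 peak lay in them in any of the 4 libraries, and the H3K9me2 lists held 0 peaks in both MCF-10A replicates and in MDA-MB-231 replicate 1. MDA-MB-231 replicate 2 had 1 H3K9me2 peak, chr6:27845928-27847522, of 1595 bases, with a score of 53.72 at the 17.9th percentile of its list. It lies in window 3, between the run without MDA-MB-231 H3K4me3 and the next H3K4me3 region. A stretch of 500 kb held on average 4.76, 4.77, 1.4 and 5.02 H3K27me3 peaks in MCF-10A replicates 1 and 2 and MDA-MB-231 replicates 1 and 2, and 1.76, 1.46, 1.01 and 0.831 H3K9me2 peaks. The H3K9me2 averages are so low that counts of 0 or 1 are not read as a lack of that mark in the windows. The MDA-MB-231 replicate 1 list for H3K27me3 is short, with 8470 peaks against 28896 to 30496 in the other three. H3K27me3 cover was 0% in all 4 libraries, so there was no difference to test. H3K9me2 cover was 0% in MCF-10A and 0.159% ± 0.226 (SD, n = 2) in MDA-MB-231 (two-sided exact permutation test, p = 1, in a design of 2 against 2 libraries that cannot reach 0.05).

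With 1 repressive peak in the windows, the places without H3K4me3 had to be free of such peaks with at most 1 exception. The 55 regions with H3K4me3 were free of them as well, so the places without H3K4me3 are not set apart by this. Units without H3K4me3 were taken as the 59 intervals between regions, with a median length of 4.47 kb, and the 22 regions without an MDA-MB-231 peak. Those 22 lack H3K4me3 peaks in MDA-MB-231 only, and each has a peak in at least 1 MCF-10A library. None of these 81 units had an H3K27me3 peak in any library. An H3K9me2 peak in both replicates of a line was found in 0 of them, and the 1 peak of MDA-MB-231 replicate 2 fell in 1 interval. The long run in window 1 had no peak in any of the 8 repressive lists, and the span without such a peak reached from chr6:25932773 to chr6:26367708. In the 6 MDA-MB-231 lists together, no peak of any mark was found from chr6:26184650 to chr6:26284770. In window 3 the 6 MDA-MB-231 lists had no peak for 38.3 kb, from chr6:27807589 to chr6:27845927.

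The 17 regions found in MCF-10A alone can be set beside others of their kind. None of the 17 had a peak in any repressive list. Of the 1067 regions in the genome with a peak in both MCF-10A libraries alone, 52 (4.87%) overlapped an H3K27me3 peak in MDA-MB-231 replicate 1 and 112 (10.5%) in replicate 2. H3K9me2 peaks in MDA-MB-231 replicates 1 and 2 overlapped 13 (1.22%) and 11 (1.03%) of them. In all, 840 of the 1067 (78.7%) were free of all 8 repressive lists, and of the 12367 regions with a peak in every library, 11525 (93.2%) were. Most such regions thus overlapped no listed repressive peak, in the histone clusters and elsewhere. Over the genome, this share was lower for the regions in MCF-10A alone than for the shared ones. A peak missing from these lists is not a measured absence of the mark.

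Repressive peaks were found outside the windows at distances that varied between libraries. The nearest H3K27me3 peak of any library lay 82.2 kb from window 1, 85.6 kb from window 2, 11.3 kb from window 3 and 5.29 kb from window 4. For H3K9me2 the distances were 77.7, 185.0, 32.8 and 10.8 kb. The values for window 4 come from 1 library each, MDA-MB-231 replicate 2 for H3K27me3 and MDA-MB-231 replicate 1 for H3K9me2. In both MCF-10A replicates, window 3 was the closer of these windows: H3K27me3 lay 11.3 and 25.3 kb from window 3 and 27.8 and 28.0 kb from window 4, and H3K9me2 lay 33.7 and 64.5 kb against 60.2 and 78.6 kb.

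The window edges fell between regions. Just outside, the regions before window 1 (chr6:25991938-25993617), after window 2 and on both sides of window 3 had a peak in all 4 libraries. The region after window 1, chr6:26304936-26305635, had 683 and 646 bases in MCF-10A and is listed at 0 in MDA-MB-231, as is that before window 2, chr6:27064314-27065346, with 692 and 1033 bases in MCF-10A. The region before window 4 had a peak in all 4 libraries, and that after it, chr1:149871083-149871848, had 573 and 766 bases in MCF-10A and is listed at 0 in MDA-MB-231. Just inside, the first region of window 1 was a call of 401 bases in MCF-10A replicate 2 alone, and the last had a peak in all 4 libraries.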

How the data were processed

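ChIP-seq of 3 histone marks was deposited for 12 libraries as peak lists, and 4 input libraries came without a list. Per the submitters' processing notes, CASAVA 1.6, Bowtie2, MACS 1.4 and bedtools were used, and the build is hg19, with roles and settings not given in the sources used here. The deposited lists give intervals and the authors' score per peak, all 50 or more; its scale is not stated, and it served only to rank and filter peaks within a list. Peaks outside chromosomes 1 to 22 and X (0.2225% to 0.7267% of a list) were left out.

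H3K4me3 peaks overlapping by at least 1 bp were merged over the 4 libraries. Covered bases per region were tested as log2(bases + 100) with limma 3.58.1 (R 4.3.3) on regions with a peak in at least 2 libraries, with Benjamini-Hochberg adjustment over all of them. The script was tested on simulated data that held no regions at 0 bases, so that test does not bear on such regions. Window cover was compared by an exact permutation test (Python 3.11.15). Replicates are biological replicates per the labels, 2 for each mark and line. The limma p-values rest on a spread between replicates that is estimated with help from all tested regions. In the 17 window regions with peaks in both MCF-10A libraries only, both MDA-MB-231 replicates are at 0 and show no spread. Every region inside the windows was accounted for, by position or in a count. The windows, members and lists were chosen with earlier results of these data known. Histone gene names, order and promoter sequences are from RefSeq (GRCh38.p14), whose coordinates were not used. Alternatives were other pseudocounts, scaled cover, score minimum, equal list lengths, merging distance, overlap share, a replicate block and leaving out each library.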

Additional observations from a re-analysis of the deposited data

How the results depend on the processing

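No called region changed sign, while several regions without a call did, such as chr6:26183911-26184649, from -0.36 to 0.15 without MDA-MB-231 replicate 1, and chr6:27858235-27859134, from -0.12 to 1.44 without MCF-10A replicate 2. The regions of the windows called lower in MDA-MB-231 (19) numbered 11, of 36 tested, when regions within 1000 bp were joined, and 13 to 17 with 1 library left out; those called higher (0) numbered 0 to 1. Over the genome, calls lower (1366) numbered 840 to 1084 and calls higher (1578) 768 to 1162 with 1 library left out, and without MCF-10A replicate 1 the balance turned, with 1084 lower and 768 higher. Regions in MDA-MB-231 alone (0) numbered 1 when at least 50% of a region had to be covered, and 0 to 1 with 1 library left out. The long run held 14 regions, 8 with joined regions and 14 to 16 with 1 library left out; the run and the alternatives for the H3K4me3 cover were chosen after seeing the data. The H3K9me2 cover difference (0.159 percentage points) was 0 with a score of at least 100, 0 in windows 1, 2 and 4 alone, and 0 to 0.319 with 1 library left out. Units without H3K4me3 that had H3K9me2 (0) numbered 1 when either replicate sufficed, and 0 to 1 with 1 library left out.

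The region chr6:27774467-27775839 lost its limma call with a pseudocount of 20 (adjusted p = 0.0552), with joined regions (0.0631), with the replicate block (0.0582) and with each library left out (0.192 to 0.26), and chr6:27781802-27783340 with each library left out (0.0666 to 0.122). Without either MDA-MB-231 replicate, chr6:26196801-26197800, chr6:26233939-26235248, chr6:26270942-26271916 and chr6:27794170-27794854 lost theirs. Calls were gained in limma at chr6:26055386-26057005 with scaled cover (adjusted p = 0.0344), chr6:26043119-26043907 without MCF-10A replicate 2 (0.0236), chr6:26171708-26173724 without MDA-MB-231 replicate 1 (0.0402) and chr6:27791484-27793225 with joined regions (0.0436). Same-numbered replicates correlated at 0.16 in their deviations over 15780 regions, and with 2 pairs the numbers are not shown to pair the samples. With the replicate block, 18 regions of the windows were called lower, and 1236 lower and 1401 higher over the genome. Alternatives based on start sites or gene bodies were not run, since the gene table has another build. The depth behind the peak lists is unknown.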
